A study of Mus musculus with 6 samples.

Results

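The Hedgehog pathway was examined in Leydig cells, the androgen-producing cells of the testis, through its ligand Dhh, the receptors and binding proteins Cdon, Boc, Gas1, Ptch1 and Hhip, the transducer Smo and the transcription factors Gli1, Gli2 and Gli3. These 10 genes were chosen by name as the ligand, receptors and effectors of the pathway. Values were held for 8 of them, among 10580 listed genes, while Boc and Gas1 were not listed and so had no value. The cells came from testes of XY mice that all carried an Nr5a1-GFP transgene. The embryos were bred from CD-1 females and heterozygous transgenic males, and the adult males were heterozygous for the transgene. Nr5a1 is active in Leydig cells and, at a lower level, in Sertoli cells, so the sort for strong fluorescence defined the cells by the level of the reporter. RNA was sequenced from 3 libraries of fetal Leydig cells (FLCs) at embryonic day 18.5 and 3 libraries of adult Leydig cells (ALCs) from 100-day-old (P100) males. Cells of several sorts were pooled to reach the RNA needed for the FLC libraries. The ALCs also came from several independent purifications, and how these were divided among the ALC libraries is not given here.

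Hedgehog proteins are secreted signals that carry lipid groups. In the testis, Sertoli cells release Desert hedgehog (Dhh), and the interstitial cells that receive it include the precursors of FLCs, whose differentiation needs the signal. On the receiving cell the ligand binds Ptch1 together with the co-receptors Cdon, Boc or Gas1, which frees Smo from inhibition and lets the Gli factors turn on target genes. Ptch1, Hhip and Gli1 are themselves classical targets of the pathway, so the pathway raises its own inhibitors.

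Each value below is the deposited mean of normalized counts over all 6 libraries, FLCs and ALCs together. A normalized count is a read count divided by a factor that adjusts for the depth of its library. The libraries had no value of their own, so no SD and no library depth is given. The columns of the study's own comparison between the stages were not used, so no level of FLCs or ALCs alone and no difference between them is given, and no test was made. Each library was made from many cells, so a level also cannot tell a few cells with much RNA from many cells with little. Since long transcripts give more reads, genes were compared after division by the summed length of their annotated exons, in kilobases (kb). Percentiles give the share of listed genes with a lower value. They refer only to listed genes, all of which had passed a limit of the study's own comparison between the stages, and not to all expressed genes. An unlisted gene may still be expressed, so counts of listed genes below are not counts of expressed genes. They are given without the share of all compared genes that were listed, so they show no trait of any group.

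The 8 genes spanned a wide range of levels, with a co-receptor at the top and a ligand and a Gli factor at the bottom. Per kb of exon the order from high to low was Cdon, Smo, Ptch1, Gli1, Hhip, Gli3, Dhh and Gli2. The first 3 of these lay above the median of the listed genes, which was 147 normalized counts per kb, and the other 5 lay below it. Cdon alone held 73.1% of the per kb levels of the 8 genes added together. Whether neighbours in this order differ by more than the spread between libraries cannot be said from a single mean per gene. The order and the share are those of both stages averaged, and since every listed gene had passed a limit for a difference between the stages, they may hold in neither stage alone.

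**Figure D1:**
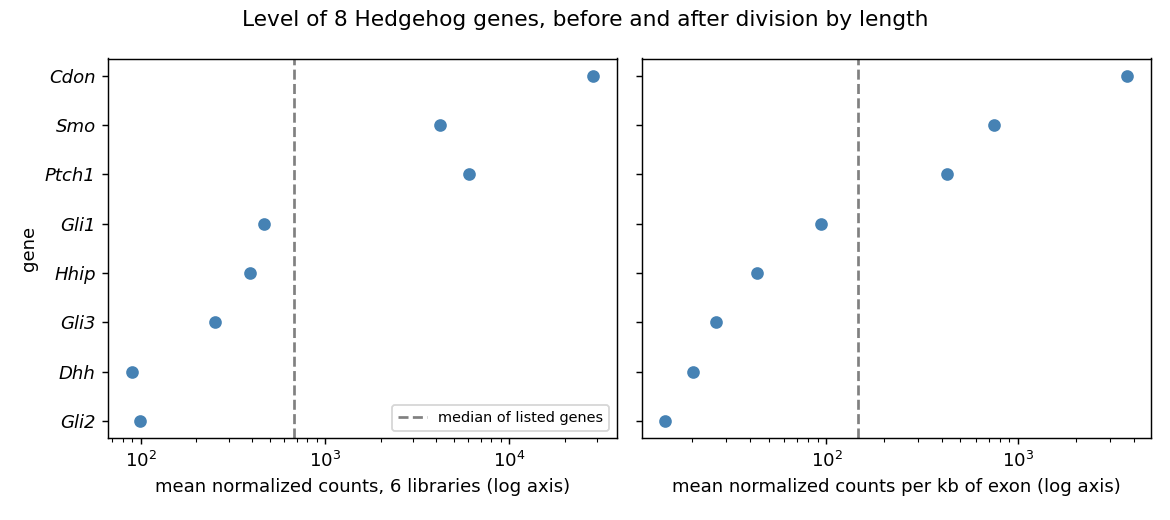
Mean normalized counts over 6 libraries of the 8 Hedgehog genes, as deposited (left) and per kb of exon (right), on log axes, with 1 point per gene and the dashed line at the median of the listed genes. Cdon, Smo and Ptch1 lie to the right of the line on both scales, and Smo and Ptch1 change places between the scales.

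Dhh, the ligand, was among the lowest of these genes. It lies on the minus strand of chromosome 15 of GRCm38, from 98891152 to 98898540, and its exons cover 4.40 kb. Its mean was 89.0 normalized counts, at percentile 21.9 of the listed genes (95% Wilson interval 21.1 to 22.7, for the share of genes alone). Per kb this was 20.2, at percentile 19.5, or 0.138 times the listed median. By level per kb its nearest neighbours were Gm20489 and Wisp3 (20.3 and 20.2) above and Apitd1 and Faah (both 20.2) below. The exons of Dhh are not all its own in the annotation. The neighbouring gene Rhebl1, on the same strand, shares 546 of their bases (12.4%), and an antisense transcript, Gm49442, covers 1107 bases (25.2%). Reads in shared exons may have been assigned to either gene, and the use of strand in the counting is not given in the sources used here. The level of Dhh is therefore uncertain, by an amount that the shared bases do not set, as neither Rhebl1 nor Gm49442 was listed.

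Dhh is also a marker of Sertoli cells, and the other listed Sertoli cell markers also lay below the listed median per kb. Of 8 such markers, 5 were listed with Dhh included. Amh, the hormone that removes the Müllerian ducts, had a mean of 137 normalized counts, Wt1 41.0, Dmrt1 14.8 and Fshr, the receptor for follicle-stimulating hormone, 3.89. Per kb, the level of Amh was 82.2, at percentile 38.5, which is 4.06 times that of Dhh. Wt1 (6.62), Dmrt1 (5.72) and Fshr (1.65) were lower per kb than Dhh (20.2). Sox9, Clu and Cldn11 were not listed and so had no value. None of the markers of Schwann cells, another source of Dhh in nerves, was listed, so no value of them was used. How much of the Dhh level came from Sertoli cells in the sort was not tested.

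A second ligand, Shh, was listed at a similarly low level. The mean of Shh was 105 normalized counts, or 37.0 per kb, which is 1.83 times the per kb level of Dhh. Genes for the making and release of the ligand were mixed. Hhat, which attaches a lipid group to Hedgehog proteins, had 33.3 normalized counts per kb. Scube1, of a family of secreted proteins that help release the ligand, had 116 per kb, whereas its relatives Scube2 and Scube3 had 4.10 and 3.70. Disp2, a relative of the transporter that exports the ligand, was the lowest listed gene of the pathway, with 1.57 per kb. Of the 9 genes in this group 7 were listed, all of them below the listed median per kb.

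Cdon, an immunoglobulin-family co-receptor that presents the ligand to Ptch1, was by far the highest of the members. It lies on the plus strand of chromosome 9, from 35421128 to 35507652, with 7.72 kb of exon and 6 annotated transcripts. The mean was 28637 normalized counts, rank 68 of 10580 and 42.2 times the listed median. Per kb the level of 3712 ranked 202 of 10503 genes with a length, at percentile 98.1. On that scale Cdon stood 4.99 times above Smo, 8.68 times above Ptch1 and 183 times above Dhh. No other gene shares exon sequence with Cdon in the annotation. The genes next to it by level per kb were Trp53i11 (3725) and Gnb2l1 (3715) above, and Gabarap (3703) and Cpxm1 (3701) below. Gnb2l1 and Gabarap, a ribosome-associated protein and an autophagy protein, are expressed in most cell types. Against the steroidogenic genes Cdon remained lower, since the level of Star, which brings cholesterol into mitochondria, was 5.73 times higher per kb, and that of Insl3, a hormone of Leydig cells, 112 times.

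Ptch1 and Smo, the receptor and the transducer it holds in check, were both well above the listed median. Ptch1, on chromosome 13 from 63508328 to 63573598, had a mean of 6063 normalized counts and 427 per kb, at percentile 75.0. Smo, on chromosome 6 from 29735503 to 29761365, had a mean of 4183 and 744 per kb, at percentile 85.8. Their order depended on length. The mean of Ptch1 was 1.45 times that of Smo, but its level per kb was 0.574 times that of Smo, as the exons of Ptch1 cover 14.2 kb and those of Smo 5.62 kb. The exons of neither Ptch1 nor Smo are shared with another annotated gene.

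Hhip, a membrane protein that binds Hedgehog ligands and keeps them from Ptch1, was lower than Ptch1. It lies on chromosome 8 from 79965851 to 80058006 and had a mean of 393 normalized counts, or 43.3 per kb, at percentile 29.1. The level of Ptch1 per kb was 9.87 times as high, and a small RNA gene on the opposite strand, Gm27820, shares 1.93% of the exons of Hhip.

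The other genes of reception at the membrane covered nearly the whole range of levels. Gpc3, a glypican that binds Hedgehog ligands and competes with Ptch1 for them, had 2657 normalized counts per kb, at percentile 96.9, and came closest to Cdon. Its relative Gpc6 had 7.66. Gpr161, a receptor of the cilium that dampens the pathway, had 5.61 per kb, and Lrp2, a large endocytic receptor, 3.24. Of the 10 genes in this group 8 were listed, 4 of them above the listed median per kb, namely Cdon, Gpc3, Smo and Ptch1.

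**Figure D2:**
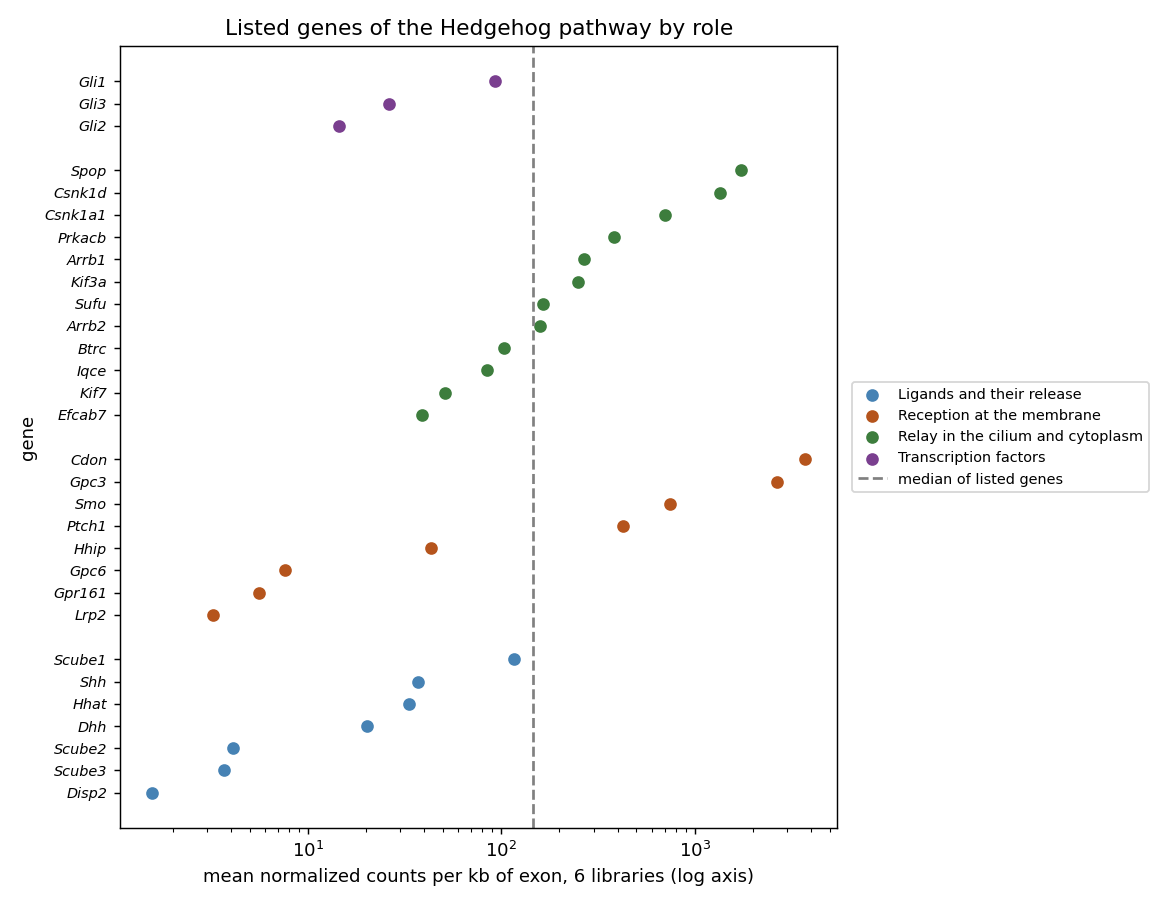
Mean normalized counts per kb of exon over 6 libraries for the 30 listed genes of the Hedgehog pathway, grouped by role on a log axis, with 1 point per gene and the dashed line at the median of the listed genes. All ligand and Gli genes lie to the left of the line, and Cdon and Gpc3 lie farthest to the right.

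Of the Gli factors, each of which had a value, Gli1 was the highest. Gli1, an activator that the pathway itself induces, lies on chromosome 10 from 127329882 to 127341974 and had a mean of 465 normalized counts, or 93.2 per kb, at percentile 40.8. Gli3, which acts mainly as a repressor, lies on chromosome 13 from 15463235 to 15730026 and had a mean of 254 and 26.4 per kb, at percentile 22.8. Gli2, the main first activator, lies on chromosome 1 from 118834132 to 119053619 and had a mean of 99.3 and 14.5 per kb, at percentile 16.0. Per kb, the level of Gli1 was 3.52 times that of Gli3 and 6.45 times that of Gli2. Smo stood 7.99 times above Gli1. Small parts of the exons are shared with genes on the opposite strand, 5.31% for Gli1 with the antisense transcript Gm47200, 1.24% for Gli1 with Arhgap9 and 1.96% for Gli3 with Gm6556, while Gli2 shares none.

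Among genes for proteins that carry the signal from Smo to the Gli factors, those listed were mostly at middle to high RNA levels. Of 21 symbols in this group 12 were listed, 8 of them above the listed median per kb. Sufu, which holds the Gli factors in the cytoplasm, had 164 normalized counts per kb. The kinesin Kif7, which acts at the tip of the cilium, had 51.3, and Kif3a, a motor subunit needed to build cilia, 248. Spop, an adaptor through which Gli proteins are degraded, was the highest with 1737 per kb. The casein kinases Csnk1d and Csnk1a1 had 1356 and 702, and Prkacb, a catalytic subunit of protein kinase A, had 384. Arrb1 and Arrb2, the arrestins that bind Smo, had 268 and 159. Btrc, part of a ubiquitin ligase that acts on Gli proteins, had 103, and the ciliary proteins Iqce and Efcab7 had 84.9 and 38.9. These kinases, adaptors and arrestins also serve many other pathways.

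Over the wider pathway, 30 of 43 symbols, which stand for 42 genes, were listed. Their median level was 89.0 normalized counts per kb, at percentile 40.0 of the listed genes, and 12 lay above the listed median. The levels ran from 1.57 per kb for Disp2 to 3712 for Cdon. The paper reports a total of expressed genes, limited to those for proteins and long non-coding RNA. The listed genes were not matched to that total, so the share of all compared genes that were listed was not computed. The number of listed pathway genes therefore cannot be read as a trait of the pathway.

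Marker genes of testis cell types were set beside the Hedgehog genes. Only listed markers have a value, averaged over both stages, so the identity of the sorted cells was not tested. Nr5a1, among the Leydig cell markers, is the gene of the reporter used for the sort. The 6 listed Leydig cell markers ranged from 21275 to 414861 normalized counts per kb, above every Hedgehog gene described here, and Lhcgr was not listed. Among interstitial progenitor markers, Pdgfra had 216 per kb and Tcf21 92.0, levels between those of Hhip and Ptch1. The late germ cell markers Prm1 and Tnp1 had 2623 and 2301, close to Gpc3 and below Cdon, and Ddx4 had 61.1. The endothelial marker Cdh5 had 316, Esam 35.7, and the immune markers ran from 5.61 for Cxcl2 to 170.0 for Csf1r. No marker of peritubular myoid cells was listed, so their levels are unknown here. What these other cells added to the Hedgehog genes was not tested.

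**Figure D3:**
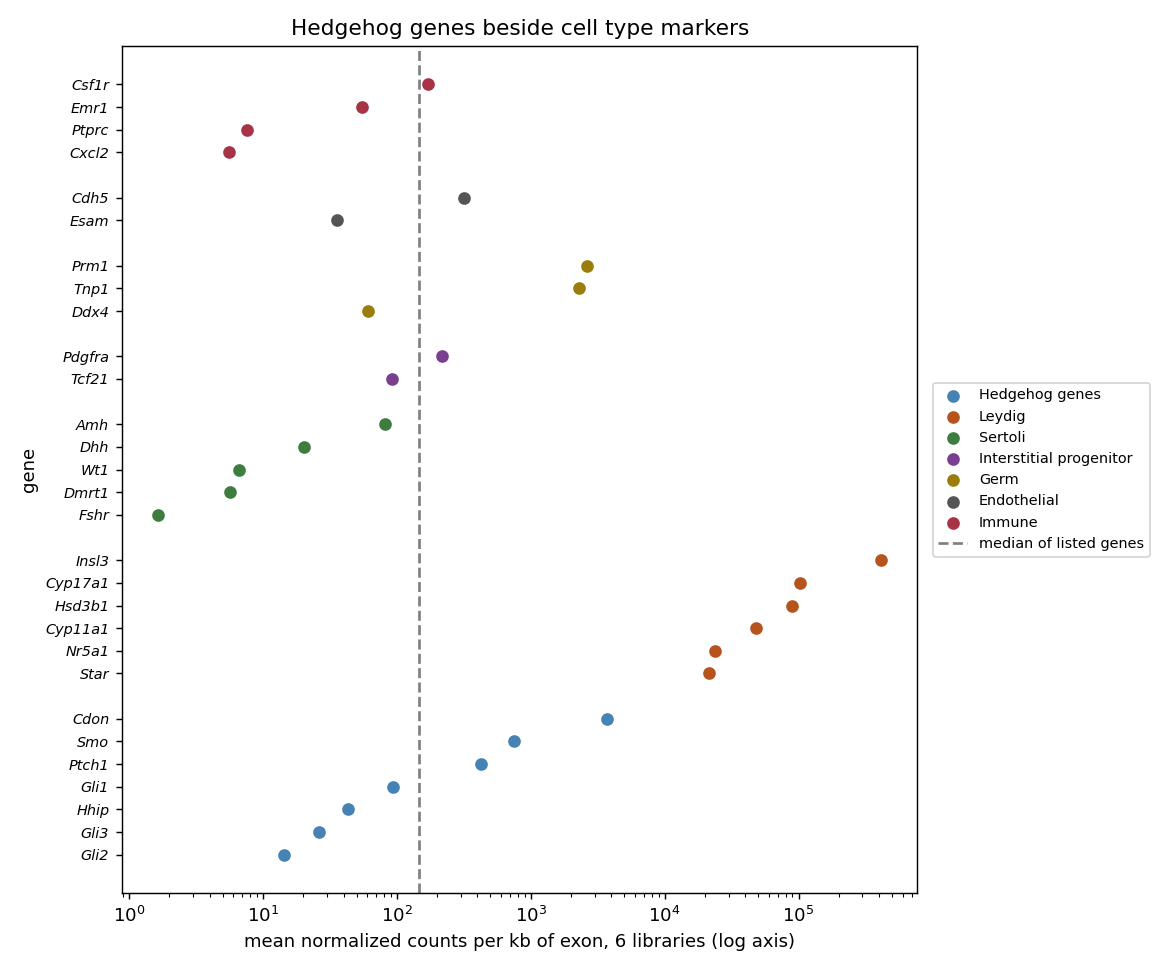
Mean normalized counts per kb of exon over 6 libraries for the Hedgehog genes and for the listed markers of cell types in the testis, on a log axis, with 1 point per gene and the dashed line at the median of the listed genes. Dhh is drawn among the Sertoli cell markers, below Amh, and Cdon lies below all 6 Leydig cell markers.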

How the data were processed

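FLCs at E18.5 and ALCs at P100 were sorted by strong Nr5a1-GFP fluorescence, with 3 libraries per stage. Per the paper's methods, a stranded total RNA kit with ribosomal RNA removal was used, although its results text names poly(A)+ RNA. The authors demultiplexed reads with CASAVA 1.8.2, aligned them with GemTools, obtained gene counts with their own pipeline (GENCODE genes, GRCm38), dropped genes with few reads and ran DESeq2. The deposited signal averages, across the 6 libraries, each count after scaling by its size factor. The deposited table also holds the authors' own comparison of the stages (fold change, its standard error, test statistic, p-values). These columns were not used, except to check that every listed gene has an adjusted value below 0.05, so the list is a selection. A sample sheet without measurements was not used. Library depths are unknown.

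Genes were matched to GENCODE vM21 (GRCm38) by symbol (10205 genes) or by an older symbol from RefSeq (298 genes), and 77 had no unique match. The version of GENCODE differs from that of the counting. Levels were divided by the union of annotated exons. Percentiles were computed with Python 3.11.15, pandas 2.3.3 and scipy 1.17.1, with 95% Wilson intervals that cover the share of genes only. No sequence is printed, as the values concern whole transcripts. The members and lists were chosen with earlier results of these data known. Genes named are the listed members, the listed genes of the pathway and marker lists, and the 2 nearest genes by level per kb on each side of a member, given for Dhh and Cdon. A further 2 genes of the lists were left out of all counts and are not reported here. Marker lists are given in part by their range, and genes that share exon sequence with a member were named after their overlap was seen. Alternatives were another background of genes, the longest transcript as length, no length division and older symbols.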

Additional observations from a re-analysis of the deposited data

How the results depend on the processing

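Under another background or the longest transcript as length, percentiles moved by at most 4.01 points. No member crossed the listed median under these settings or without division by length, although Ptch1 lay at percentile 94.0 by its undivided mean and at 75.0 per kb, and Hhip at 40.4 and 29.1. For Dhh, leaving out listed genes with a mean under 10 normalized counts lowered the percentile of the mean to 18.1 and that per kb to 15.6, by the removal of low genes from the background. With the longest transcript as length, the per kb percentile was 17.8 for Dhh and 97.3 for Cdon. Without division by length, Cdon stood 322 times above Dhh in place of 183 times. Restricting the background to protein-coding genes was run for the undivided means alone and moved their percentiles by at most 0.237 points, and older symbols left the number of listed pathway genes at 30. The coding length from RefSeq proteins was not run, because no protein table was used here. No paired analysis was possible because the values carry no replicates, and no library could be left out for the same reason. The error of every level is therefore unknown.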
